A study of Arabidopsis thaliana with 6 samples.

Results

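Expansins, xyloglucan endotransglucosylase/hydrolases (XTHs) and GH9 cellulases are the 3 families of wall enzymes described here. The seedlings were dark-grown Arabidopsis thaliana, either wild type or pif1-2, which the labels give as a mutant of PIF1. Members were found by name alone: every probe set that the array annotation assigns to 1 gene whose symbol belongs to one of the families, with the brightest probe set kept for each gene. This gave 42 genes out of 13350 named on the array, of which 18 were expansins, 9 XTHs and 15 GH9 cellulases, each with a single probe set. A mean signal of at least 50 over the 6 arrays was reached by 33 of them (16 expansins, 6 XTHs and 11 GH9 cellulases), and only these were compared between the genotypes. The annotation does not cover the families in full, since 8730 probe sets carry no gene name in it, 4 probe sets are shared by several family genes, and 2 further family genes appear under other symbols.

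The primary wall of a growing plant cell is a network of cellulose microfibrils tied together by xyloglucan and embedded in pectin, and turgor stretches it as fast as the network yields. Expansins loosen it without cutting it, by weakening the contact between microfibrils and matrix glycans at acid pH. XTHs cut xyloglucan chains and rejoin them to other chains, or in some members hydrolyse them, and GH9 enzymes are endo-glucanases that cleave glucans at internal bonds during cellulose synthesis and wall remodelling. A dark-grown hypocotyl lengthens almost wholly by cell expansion, a process in which these families take part. PIF1 is a basic helix-loop-helix factor that binds phytochrome and is active in darkness.

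The groups were pif1-2, a T-DNA insertion mutant of PIF1, and wild type Col-0, with 3 ATH1 arrays of whole seedlings each. Both groups were chilled as seeds for 4 days, exposed to light for 1 hour and grown at 21 °C in darkness for 4 days. According to the labels the mutant has very little PIF1 mRNA and is shorter than etiolated wild type by about 2 mm. The mutant is represented by 1 allele, and the comparison asks which transcripts of growing seedlings depend on PIF1.

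All values below are MAS5 signals scaled so that every array has the same trimmed mean, and log2 fold changes are pif1-2 minus wild type on log2(signal + 16), a scale that understates the change of dim genes. A probe set's signal depends on how well its probes bind, so signals are compared between arrays and not between genes. The median deposited signal lay between 184 and 199 on the 6 arrays. The array of pif1-2 replicate 3 had the highest actin 3-prime to 5-prime ratio, 8.07 against 3.53 to 5.17 on the others, and that of pif1-2 replicate 2 the lowest 25S rRNA signal, 545.5 against 5876.6 to 13935.5. The labels print locus At2g20810 beside the allele, whereas the RefSeq gene table has PIF1 at AT2G20180. No named probe set measures AT2G20180, so the genotypes, and which gene is disrupted, rest on the labels. In the whole comparison limma called 2 of 17695 probe sets after Benjamini-Hochberg adjustment, which is 0.0113%.

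None of the 33 members passed that threshold, and the lowest limma adjusted p among them was 0.145, for XTH19. At an unadjusted limma p under 0.05, 5 members were lower in pif1-2 (XTH19, XTH32, XTH33, EXPA9 and GH9C2) where 4.36% of all probe sets were, and 2 were higher (EXPA8 and EXPB2) where 3.31% were. For 4 members the highest pif1-2 array was still under the lowest wild-type array, against 6.58% of all probe sets, and for 2 members the lowest pif1-2 array was above the highest wild-type array, against 6.49%. The median log2 fold change was -0.33 over the 6 XTHs, 0.038 over the 16 expansins and 0.016 over the 11 GH9 cellulases, beside 0.00095 over all probe sets tested. All 6 XTHs compared had negative log2 fold changes, as did 6 of the 16 expansins, 5 of the 11 GH9 cellulases and 49.9% of all probe sets. The 95% intervals of XTH16, XTH18 and XTH20 include 0, and genes read on the same arrays are not independent. Of the 3 XTHs under the filter, in a fit without it, XTH29 was at -0.54, XTH21 at 0.28 and XTH26 at 0.19. In RNA of whole seedlings, fewer cells of a type and less RNA per cell cannot be told apart.

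**Figure D1:**
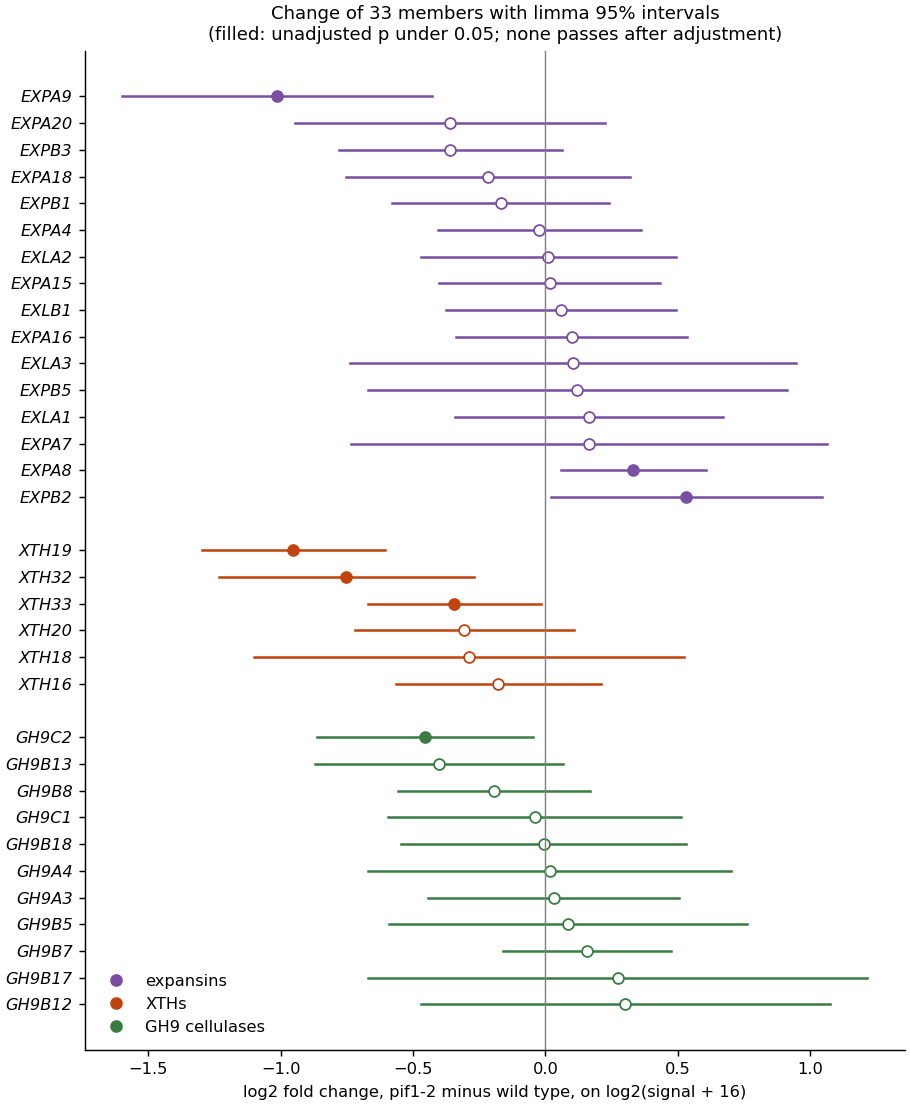
Log2 fold change of the 33 members (points; pif1-2 minus wild type, on log2(signal + 16)) with limma 95% intervals (lines), by family. The 6 XTHs lie left of 0, between -0.95 and -0.18, whereas expansins run from -1.01 to 0.53 and GH9 cellulases from -0.46 to 0.30.

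XTH19, which encodes a xyloglucan endotransglucosylase/hydrolase of a small clade known from growing roots, had the smallest p of the 33 compared members. Its signal was 1024, 1033 and 1041 on the pif1-2 arrays, against 1599, 2333 and 2181 on the wild-type arrays. The mutant arrays were almost identical and lay below every wild-type array, of which replicate 1 was the lowest. The log2 fold change was -0.95 (SE 0.16, 95% interval -1.30 to -0.61, limma adjusted p = 0.145), and XTH19 ranked 8 among 17695 probe sets by p. Without wild type replicate 1, the wild-type array nearest to the mutant, it passed the threshold (limma adjusted p = 0.0226, log2 fold change -1.12). That fit called 7 of 17695 probe sets. With any other single array left out, the limma adjusted p of XTH19 was 0.149 or more. Over all settings tried it ranged from 0.0124 to 0.610.

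XTH18, the next gene along the chromosome and a close relative of XTH19, varied more within the groups than between them. Its signals were 1026, 1861 and 2130 in pif1-2, against 955, 2804 and 2773 in wild type. The replicate 1 array was the lowest in both genotypes, and the groups overlapped. Its log2 fold change of -0.29 had a 95% interval from -1.10 to 0.52 (limma adjusted p = 0.903). Leaving out wild type replicate 1 gave -0.80, and leaving out pif1-2 replicate 1 gave 0.028, so its direction rested on single arrays. XTH20, of the same clade, had 166, 199 and 173 in pif1-2, against 183, 246 and 251 in wild type (-0.31, SE 0.19). Here pif1-2 replicate 2 overlapped wild type replicate 1. Whether the probe sets of these close relatives also bind each other's RNA was not tested.

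XTH32 belongs to the branch of the family whose Arabidopsis members include xyloglucan hydrolases. It stood at 254, 153 and 180 in pif1-2, against 263, 338 and 415 in wild type. The groups did not overlap, although pif1-2 replicate 1 and wild type replicate 1 were close. With a log2 fold change of -0.75 (SE 0.22, 95% interval -1.23 to -0.27), its limma adjusted p was 0.467. XTH33 gave 368, 395 and 442 in pif1-2, against 515, 552 and 474 in wild type, again without overlap. The difference was smaller, at -0.34 (SE 0.15, limma adjusted p = 0.637). XTH16 was the member of the family nearest to 0, at 990, 1234 and 1124 in pif1-2, against 966, 1372 and 1507 in wild type. These ranges overlapped, and the log2 fold change of -0.18 had a 95% interval from -0.57 to 0.21.

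**Figure D2:**
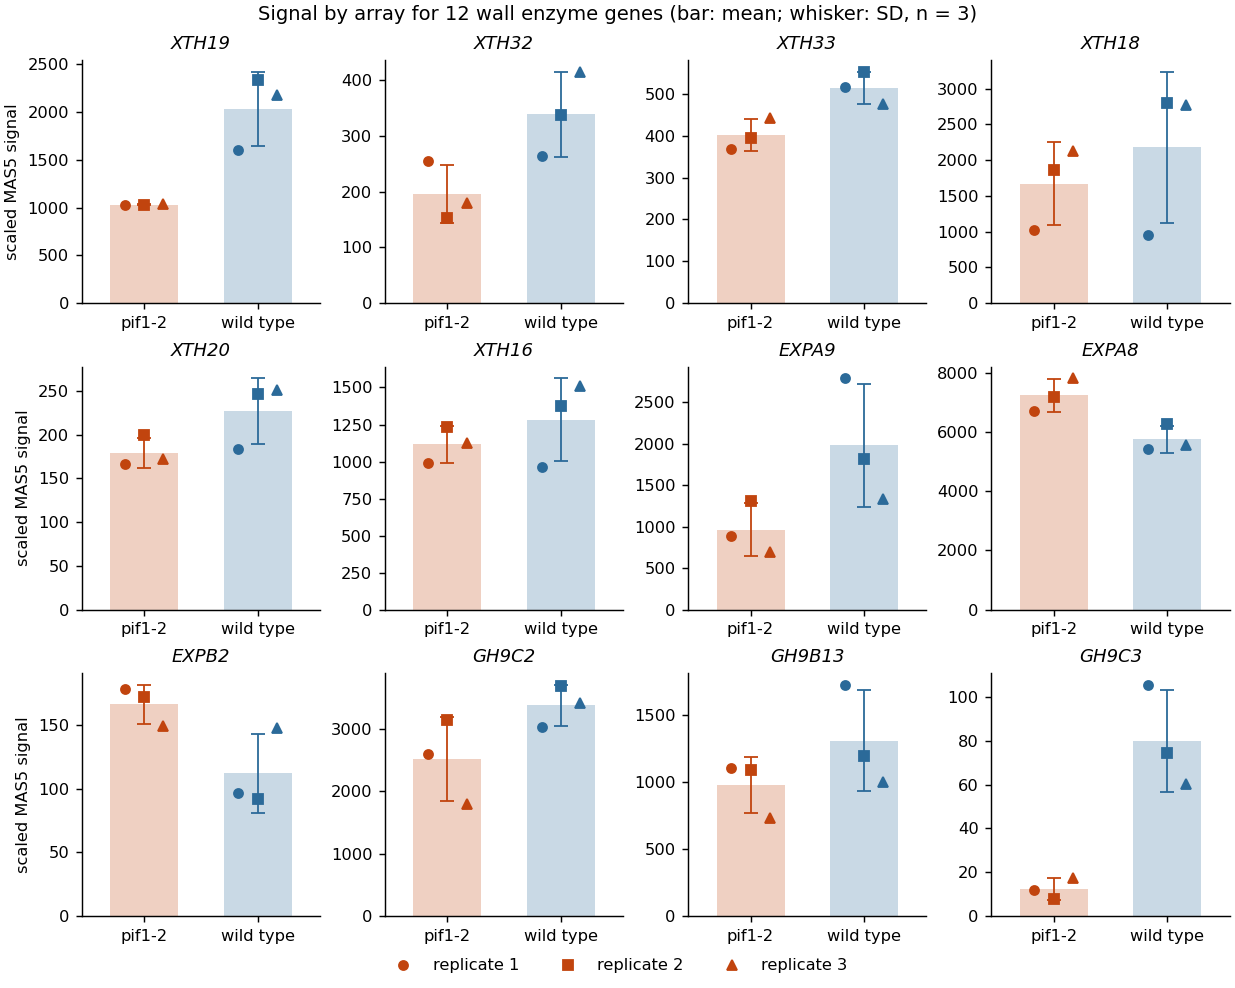
Scaled MAS5 signal (vertical axes, from 0, a different scale for each gene) on each array for 12 wall enzyme genes, with pif1-2 left of wild type. Bars are group means, whiskers the SD of 3 arrays, and marker shape gives the replicate. XTH19 lies between 1024 and 1041 on the pif1-2 arrays, XTH18 is low on both replicate 1 arrays, and GH9C3 reaches at most 17.4 in pif1-2.

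Among the alpha-expansins, a subfamily with established wall-loosening activity, EXPA9 and EXPA8 ran in opposite directions. EXPA9 had signals of 887, 1312 and 689 in pif1-2, against 2790, 1818 and 1335 in wild type. The groups were separated only narrowly, with pif1-2 replicate 2 just under wild type replicate 3, and the wild-type arrays differed from each other by more than the pif1-2 arrays did. Its log2 fold change was -1.01 (SE 0.27, 95% interval -1.60 to -0.43, limma adjusted p = 0.410), the most negative of the 33. With 1 array left out the log2 fold change of EXPA9 ranged from -1.26 to -0.74, and it was -0.80 without pif1-2 replicate 3. Over all settings tried its limma adjusted p ranged from 0.0378 to 0.946. EXPA8 had 6708, 7194 and 7819 in pif1-2, against 5423, 6271 and 5552 in wild type. Every pif1-2 array lay above every wild-type array, and the log2 fold change was 0.33 (SE 0.13, 95% interval 0.058 to 0.61, limma adjusted p = 0.614).

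The other 6 alpha-expansins had log2 fold changes between -0.36 and 0.17, none at an unadjusted limma p under 0.05. EXPA20 gave 155, 107 and 138 in pif1-2, against 269, 147 and 132 in wild type (-0.36, SE 0.27). Its wild-type mean was carried by replicate 1, and the groups overlapped. EXPA15 was close to 0 (0.016, 95% interval -0.40 to 0.43), with 249, 390 and 252 in pif1-2, against 281, 282 and 299 in wild type. Here the pif1-2 arrays spread around a tight wild-type group. EXPA4 and EXPA16 stood at -0.023 (95% interval -0.41 to 0.36) and 0.099 (-0.34 to 0.53).

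EXPA7 and EXPA18 are the expansins known from root hairs, where they act in hair growth. EXPA18 had 149, 277 and 153 in pif1-2, against 174, 249 and 239 in wild type (log2 fold change -0.22, SE 0.25). EXPA7 had 91.1, 199 and 159 in pif1-2, against 51.7, 175 and 206 in wild type (0.17, SE 0.41). Both overlapped widely between genotypes, and both were lowest on the replicate 1 array of each. The fixed root hair markers had 1 of 8 genes named on the array, the peroxidase gene AT1G30870, and it read 177, 382 and 215 in pif1-2, against 205, 398 and 447 in wild type. Its replicate 1 arrays were likewise the lowest of each genotype. Its part in these values was not tested.

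The beta-expansins, a subfamily best studied in grasses, also had members on both sides of 0. EXPB2 was measured at 178, 172 and 149 in pif1-2, against 96.7, 91.8 and 147 in wild type. The pif1-2 arrays were all higher, but pif1-2 replicate 3 exceeded wild type replicate 3 by very little. It had the most positive log2 fold change of the 33 members, 0.53 (SE 0.23, 95% interval 0.022 to 1.04, limma adjusted p = 0.637). EXPB3 gave 227, 195 and 159 in pif1-2, against 240, 296 and 222 in wild type, an overlapping pair of groups whose log2 fold change was -0.36 (SE 0.19, limma adjusted p = 0.708). EXPB1 was at -0.17 (95% interval -0.58 to 0.24) and EXPB5 at 0.12 (-0.67 to 0.91).

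Expansin-like proteins share the expansin fold, but wall loosening by them is not established. The 4 genes measured, EXLA1, EXLA2, EXLA3 and EXLB1, had log2 fold changes between 0.010 and 0.16, all with 95% intervals that include 0. EXLA1 had 1493, 1284 and 1165 in pif1-2, against 1682, 1207 and 779 in wild type. The wild-type arrays enclosed the pif1-2 arrays, and the log2 fold change was 0.16 (95% interval -0.34 to 0.67). EXLA2 had 668, 1035 and 1158 in pif1-2, against 729, 1170 and 920 in wild type, which gave 0.010 (-0.47 to 0.49). EXLB1 was at 0.060 (-0.37 to 0.50), with a single high array, pif1-2 replicate 3, at 1003 against 602 to 738 on the other 5. EXLA3, the neighbour of EXLA1 on the chromosome, was dim and stood at 0.10 (-0.74 to 0.95).

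**Figure D3:**
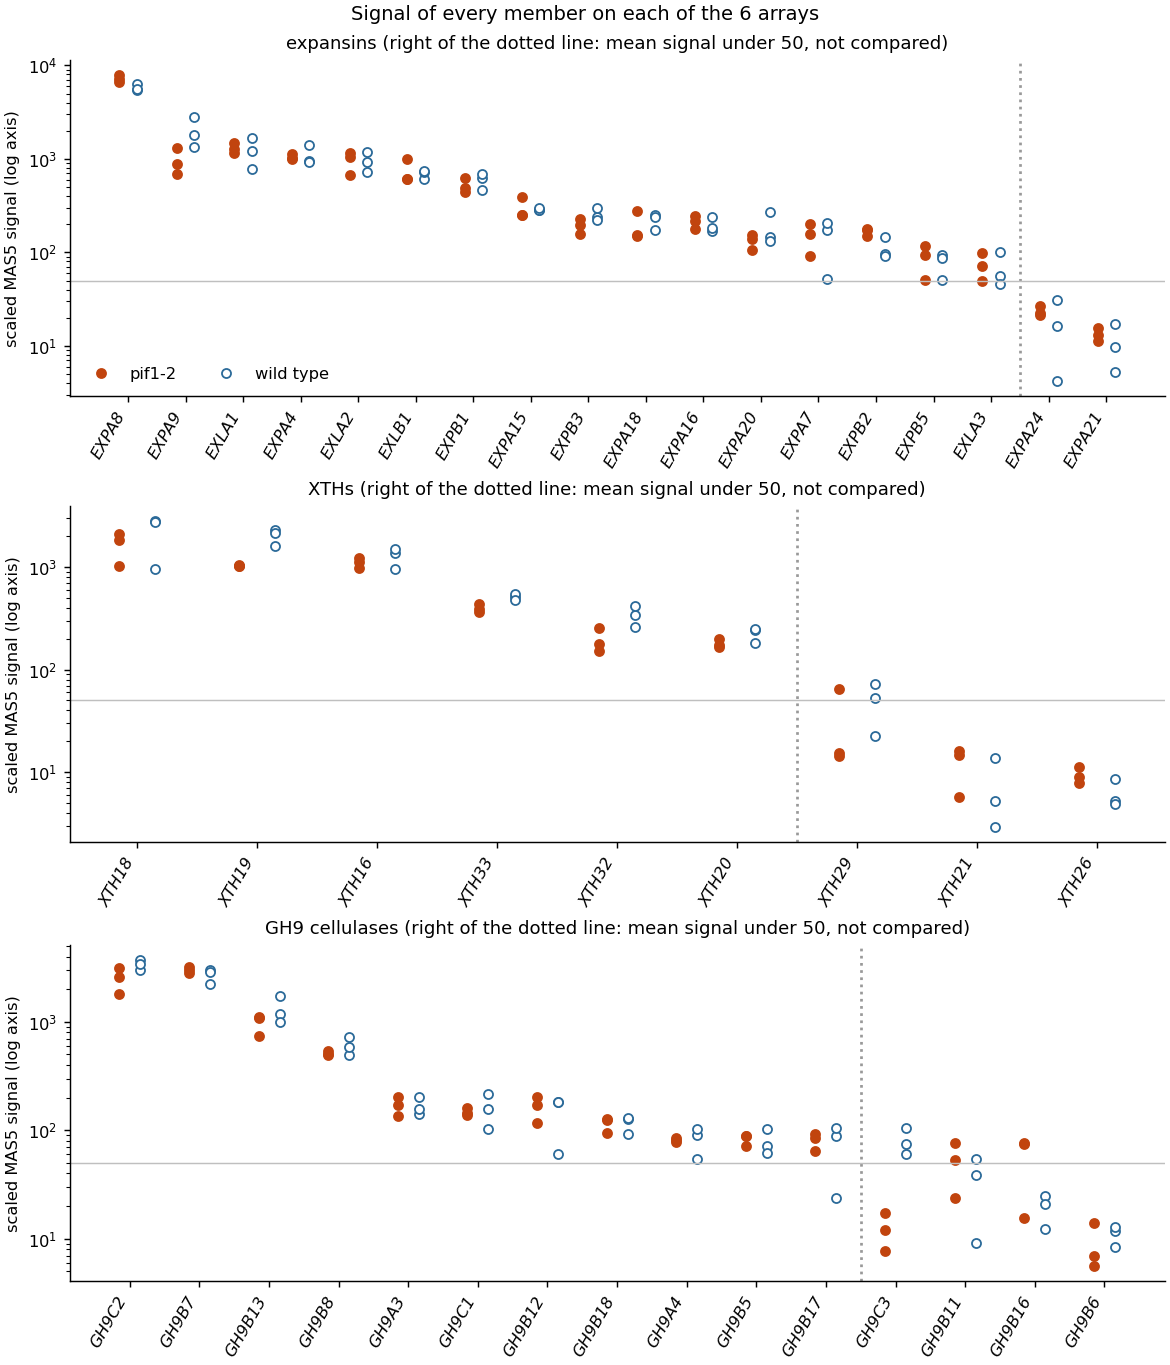
Scaled MAS5 signal (log axis) of all 42 members on each array, by family, with pif1-2 as filled points left of wild type as open points. The grey line marks a signal of 50, and genes right of each dotted line had a mean below it. Most members show overlapping groups. Among the compared genes, all pif1-2 arrays lie below all wild-type arrays for XTH19, XTH32, XTH33 and EXPA9, against 6.58% of all probe sets. They lie above them for EXPA8 and EXPB2, against 6.49%.

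GH9 cellulases fall into classes by structure: class A enzymes are anchored in the membrane, class B enzymes are secreted catalytic domains, and class C enzymes also carry a carbohydrate-binding module. GH9C2, of class C, had signals of 2607, 3139 and 1804 in pif1-2, against 3036, 3695 and 3417 in wild type. The overlap was due to pif1-2 replicate 2, which exceeded wild type replicate 1, and the lowest array was pif1-2 replicate 3, the one with the highest actin ratio. That array was the lowest of the 6 for 5 of the 33 members and the highest for 4. Whether the actin ratio bears on these values was not tested. The log2 fold change of GH9C2 was -0.46 (SE 0.19, 95% interval -0.86 to -0.048, limma adjusted p = 0.637), and -0.24 without pif1-2 replicate 3. GH9C1 was at -0.041 (95% interval -0.59 to 0.51).

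In class B, GH9B13 had 1103, 1087 and 734 in pif1-2, against 1725, 1193 and 998 in wild type. Only wild type replicate 3 fell within the pif1-2 range, and the log2 fold change was -0.40 (SE 0.22, limma adjusted p = 0.708). It was -0.18 without wild type replicate 1. GH9B8 had 542, 509 and 496 in pif1-2, against 489, 724 and 586 in wild type (-0.20, 95% interval -0.56 to 0.17). GH9B7 had 2806, 3011 and 3218 in pif1-2, against 2246, 3034 and 2877 in wild type. Apart from a low wild type replicate 1, its arrays were alike, with a log2 fold change of 0.16 (95% interval -0.16 to 0.47). GH9B12, GH9B17, GH9B5 and GH9B18 were dimmer, at 0.30, 0.27, 0.084 and -0.0060. GH9B18, the nearest to 0, read 127, 124 and 94.4 in pif1-2, against 92.7, 126 and 129 in wild type (95% interval -0.54 to 0.53), with groups that overlapped throughout. GH9B12 and GH9B17 each had 1 low wild-type array, replicate 1, at 59.8 and 23.9.

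Class A was measured by GH9A3, also called KOR3, and GH9A4. GH9A3 read 204, 136 and 173 in pif1-2, against 202, 142 and 156 in wild type (0.031, 95% interval -0.44 to 0.50). GH9A4 read 81.8, 78.0 and 84.0 in pif1-2, against 54.4, 89.7 and 104 in wild type (0.016, -0.67 to 0.70). In both, the groups overlapped and the log2 fold change was close to 0.

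The 9 members under the filter were GH9C3, GH9B11, XTH29, GH9B16, EXPA24, EXPA21, GH9B6, XTH21 and XTH26, with mean signals from 7.73 to 46.2. EXLA3, at 70.2, was the dimmest gene kept, and GH9C3, at 46.2, the brightest left out. GH9C3, a class C enzyme like GH9C2, nevertheless had groups that stood apart. GH9C3 gave 12, 7.7 and 17.4 in pif1-2, against 106, 74.4 and 60.1 in wild type. Every wild-type array was above 50 and every pif1-2 array far below it, so the low mutant values pulled the mean under the filter. In the same fit without a filter, which called 1 of 22746 probe sets (0.0044%), its log2 fold change was -1.75 (SE 0.30, 95% interval -2.43 to -1.07) and its limma adjusted p was 0.282. The pif1-2 signals are as low as those of silent members and were not shown to be above background, so the size of the fold is set by the pseudocount: it was -2.63 with a pseudocount of 1 and -0.90 with 64. GH9B16 leaned the other way, with 75.7, 74.4 and 15.4 in pif1-2, against 24.7, 12.4 and 21.1 in wild type. Its groups overlapped through pif1-2 replicate 3 (0.87, SE 0.44, limma adjusted p = 0.752 without a filter). The other 7 had unadjusted limma p-values of 0.277 or more in that fit.

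Within the groups the members were not steady, and several shared their lowest or highest array. For 11 of the 33 members the replicate 1 array was the lowest of both genotypes, among them XTH16, XTH18, XTH19 and XTH20, and for 7 it was the highest of both. Wild type replicate 1 was the lowest of all 6 arrays for 11 members. These counts were not made over all probe sets, so they cannot tell a trait of the members from one of the arrays. The median XTH position, relative to each gene's wild-type mean, was -0.43, -0.26 and -0.28 (log2) on the pif1-2 arrays, against -0.33, 0.12 and 0.20 on the wild-type arrays. Wild type replicate 1 thus lay among the pif1-2 arrays for this family. For the expansins the medians were -0.14, 0.15 and -0.16 on the pif1-2 arrays, against -0.069, 0.079 and -0.069 on the wild-type arrays, and for the GH9 cellulases 0.057, -0.033 and -0.095, against -0.27, 0.13 and 0.093. Over all probe sets tested the medians lay between -0.023 and 0.028, with wild type replicate 1 at -0.010. Without wild type replicate 1 the median log2 fold change of the XTHs was -0.62, and 7 members were lower and 0 higher at an unadjusted limma p under 0.05, where 5.05% and 4.4% of all probe sets were.

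**Figure D4:**
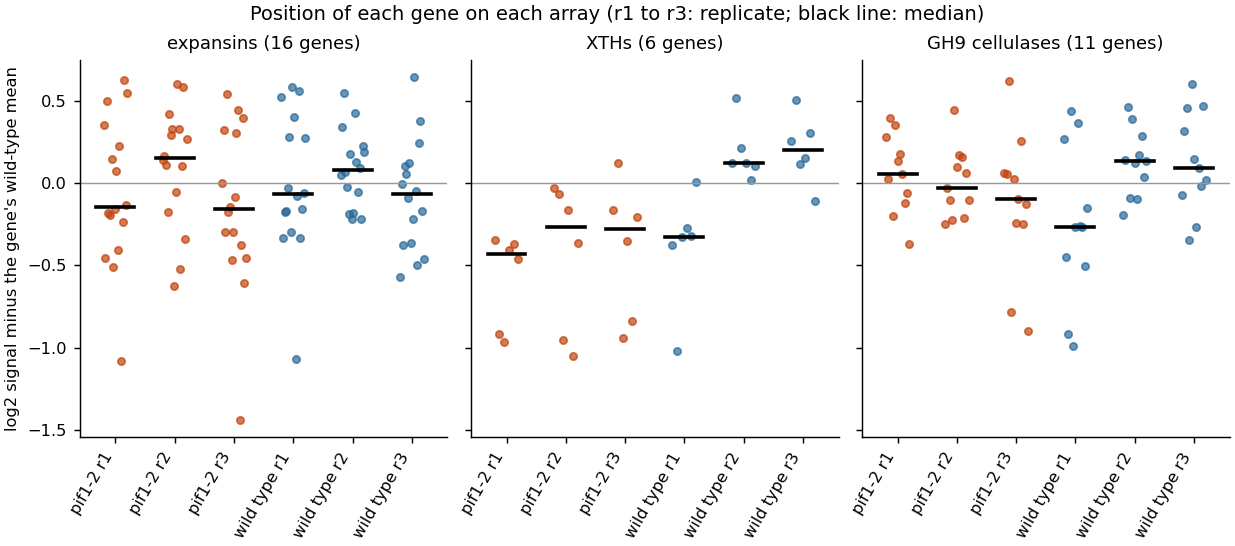
Log2 signal of each compared gene minus its own wild-type mean (vertical axis) on the 3 pif1-2 arrays and then the 3 wild-type arrays, by family, with the median as a black line. The XTH median of wild type replicate 1, -0.33, sits beside those of the pif1-2 arrays, and the expansin and GH9 medians stay between -0.27 and 0.15.

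Some members are neighbours on the chromosome in the RefSeq gene table, with no protein-coding gene between them: XTH18 and XTH19, EXLA3 and EXLA1, GH9B11 and GH9B12, and the run GH9B16, GH9B17 and GH9B18. GH9B11 and GH9B16 were under the filter, and of the compared members in these runs XTH19 alone had an unadjusted limma p under 0.05. Over all probe sets 4.36% were lower and 3.31% higher at that p, so 1 such gene is no result about neighbours.

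Other wall genes were taken by fixed name patterns for cellulose and glucan synthases, xyloglucan and pectin enzymes, and wall proteins. Of the 16 measured, 0 passed the threshold in limma, and their median log2 fold change was -0.035. At an unadjusted limma p under 0.05, 0 were lower, where 4.36% of all probe sets were, and 0 were higher, where 3.31% were. In so short a list, counts of 0 do not set these genes apart from all probe sets. The patterns also caught 4 genes that are not of the wall (PRP39, PRP39-2, PEX4 and PGL34). Without them the median of the remaining 12 was again -0.035, and the counts were again 0. Of those 12, all but COB, PME61, GAUT15 and BGAL16 were cellulose synthase-like (CSL) genes, so the list is no broad sample of wall genes. The 4 of smallest p were PRP39-2, a splicing factor gene, at 0.29, PGL34, of plastid lipid droplets, at -0.22, and 2 glucan synthase genes. CSLD2, a cellulose synthase-like gene, had 786, 612 and 637 in pif1-2, against 876, 731 and 748 in wild type (-0.21, SE 0.15). CSLC5, of the family that makes the xyloglucan backbone, had 1067, 1361 and 1104 in pif1-2, against 902, 1154 and 1047 in wild type (0.18, SE 0.15). Both pairs of groups overlapped.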

How the data were processed

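The table the authors deposited holds an intensity for each probe set on a linear scale, made with MAS5 according to the submitters' processing notes, with no version given. The deposited values show that each array had been scaled to a 2% trimmed mean of 500. Of 22810 probe sets, 64 Affymetrix controls were set aside, each array was rescaled to that mean, 5051 probe sets with a mean under 50 were left out, and log2(signal + 16) of the other 17695 was compared with limma 3.58.1 in R 4.3.3 (eBayes with an intensity trend, two-sided, Benjamini-Hochberg, threshold 0.05), without a replicate block. Values are single arrays, n = 3 per group, and their number limits the precision. In 5 runs on simulated data with 200 changed probe sets each, the fit called 43.6% of 2-fold changes and 82% of 4-fold changes. The changed probe sets were drawn from all those tested, not from the members. The median within-group SD (log2) was 0.28 for the members and 0.24 over all probe sets, so these shares need not hold for the members. A member that misses the threshold may still differ by 2-fold or even by 4-fold.

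Symbols come from the platform annotation, and neighbours and loci from the RefSeq table of TAIR10.1. The rule named every member, with arrays listed for the 12 of smallest p and the 3 brightest of each family, and the 2 of each family nearest to 0 given as examples. Others listed, such as GH9C3 and GH9B16, were chosen after their values were seen. Members, lists and tests were chosen with earlier results of these data known. Fixed markers of xylem and seed had 0 named genes, and those of stomata had FMA, at 97.5, 126 and 142 in pif1-2 against 108, 97.9 and 91.7 in wild type, and SPCH, under 50. The labels call replicates biological without naming separate cultures, so the spread behind the p-values may be technical. Alternatives covered pseudocount, filter, scaling, variance model, weights, block and single arrays. Averaging several probe sets of a gene was not needed. No sequences are printed.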

Additional observations from a re-analysis of the deposited data

How the results depend on the processing

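Over 15 other settings 17 of the 33 members kept their direction, among them XTH19, XTH32, XTH33, EXPA9, EXPA8, EXPB2 and GH9C2, and 16 did not under some setting. The number of probe sets called was 1 with no filter, with median centring, with quantile normalization and with eBayes without trend, 8 with array weights, 45 with the replicate block, and 0 to 7 with 1 array left out. Members called numbered 1 with array weights (XTH19, limma adjusted p = 0.0388), 2 with the replicate block (XTH19, 0.0124, and EXPA9, 0.0378) and 0 to 1 with 1 array left out. Same-numbered arrays correlated at 0.25, 0.099 and 0.088 in their deviations from the group means, and each matched its own number best, a hint from the data that the design does not state. Members lower at an unadjusted limma p under 0.05 numbered 3 without trend (3.69% of all probe sets) and 3 to 7 with 1 array left out (2.42% to 5.05%). Members higher numbered 1 without trend (3.05%), 1 with no filter (3.27%) and 0 to 1 with 1 array left out (2.18% to 4.4%).

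With 1 array left out, the family medians ranged from -0.066 to 0.053 for expansins, -0.62 to -0.27 for XTHs, -0.18 to 0.066 for GH9 cellulases and -0.062 to -8.6e-05 for the other wall genes. With array weights the direction turned for EXPA4 (0.079), EXLA2 (-0.19), EXLB1 (-0.061), EXPA7 (-0.14) and GH9A4 (-0.066). It also turned for GH9B18 with median centring (0.015) and for GH9A4 with quantile normalization (-0.0023). With 1 array left out, log2 fold changes that crossed 0 ranged from -0.12 to 0.42 for EXLA1, -0.13 to 0.18 for EXPA4, -0.16 to 0.24 for EXLA2, -0.18 to 0.18 for EXLB1, -0.19 to 0.12 for EXPA15, -0.37 to 0.49 for EXPA7, -0.11 to 0.41 for EXPB5, -0.095 to 0.38 for EXLA3, -0.094 to 0.17 for GH9A3, -0.29 to 0.19 for GH9C1, -0.16 to 0.53 for GH9B12, -0.14 to 0.11 for GH9B18, -0.21 to 0.17 for GH9A4, -0.050 to 0.27 for GH9B5, -0.22 to 0.57 for GH9B17 and -0.80 to 0.028 for XTH18. Others kept their sign but moved by over 1.5 times: EXPB1 (-0.34 to -0.049), EXPB3 (-0.47 to -0.23), EXPA18 (-0.49 to -0.071), EXPA16 (0.0014 to 0.24), EXPA20 (-0.54 to -0.068), GH9C2 (-0.63 to -0.24), GH9B7 (0.025 to 0.24), GH9B13 (-0.57 to -0.18), GH9B8 (-0.33 to -0.053), XTH16 (-0.37 to -0.051), CSLD2 (-0.32 to -0.13), PGL34 (-0.33 to -0.16) and CSLC5 (0.076 to 0.26). The cause was not tested. Signals near 50 are noisy in MAS5, which limits the dim members.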

Other observations

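The setting for GH9C3 and the exclusion of the 4 genes not of the wall were chosen after seeing the data. GH9C3 had a log2 fold change of -1.75 in the fit without a filter, and it stayed negative in the 11 further settings tried there. It ranged from -1.90 to -1.56 with 1 array left out. The limma adjusted p lay between 0.217 and 0.808 over these settings, so the gene was called in none of them.

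EXGT-A3, which the RefSeq gene table also lists as XTH27, falls outside the name rule and was similar in both genotypes. Its signals were 2870, 2181 and 2785 in pif1-2, against 3020, 2475 and 2625 in wild type, a log2 fold change of -0.056. Of the XTH genes measured it was thus the one nearest to 0. AT4G30380, listed there as EXLB2, was dim, with signals of 8.4, 39.2 and 8.3 in pif1-2, against 5.9, 48.1 and 5.9 in wild type. The replicate 2 array was the highest of each genotype.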
